A study of Homo sapiens with 4 samples.

Results

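The 10 genes of the Aurora and Polo kinase network described here were read from a table of 18375 genes: AURKA, AURKB, BIRC5, CDCA8, INCENP, PLK1, PLK4, TPX2, BORA and UBE2C. They were chosen by name, as the 2 mitotic Aurora kinases, the subunits of the chromosomal passenger complex, the Polo kinases of mitosis and of centriole duplication, activators of AURKA, and an enzyme that removes these proteins. All 10 of 10 were measured, and all 10 passed the filter on low values. The cells are RD, an established human rhabdomyosarcoma line of the fusion-negative type, labelled wild type in both groups. Vincristine-resistant RD derivatives gave 2 libraries: cells that outlived 1 to 1.5 nM of the drug, which killed about 80 to 90% of the culture, were grown back and exposed again in steps of 10 to 20% for 9 to 12 months, until their half-maximal inhibitory concentration was at least 100 times higher. Untreated RD cells, called parental here, gave the other 2 libraries. Vincristine blocks the growth of microtubules, and with it the mitotic spindle on which the proteins of these genes act. The labels do not say whether the drug was present when RNA was taken, nor whether the derivative is a clone or a pool. They also leave unsaid whether a group's libraries came from separate cultures, and each p-value therefore covers the variation among 4 libraries, part of which may be technical.

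Entry into mitosis is switched on by cyclin B and CDK1 and carried forward by Aurora and Polo kinases. The activator protein Bora lets AURKA phosphorylate and so activate PLK1, TPX2 then holds AURKA on spindle microtubules in its active form, and PLK4 starts the duplication of centrioles. AURKB works inside the chromosomal passenger complex, in which the scaffold INCENP and the targeting subunits survivin (BIRC5) and borealin (CDCA8) bring the kinase to centromeres, where it releases wrongly attached microtubules and keeps the spindle checkpoint active. UBE2C supplies ubiquitin to the anaphase promoting complex, which marks many of these proteins for destruction as cells leave mitosis.

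RNA was selected by poly(A) and sequenced, and each value below is a normalized count, a gene's reads divided by a size factor of its library. Recovered reads came to 58861281 and 67270948 in the resistant libraries and 67690557 and 65818879 in the parental libraries, and the 10 genes had between 875 and 32722 reads in a library. Of 13 muscle and rhabdomyosarcoma markers, 12 were measured, and their summed level was 206780 and 212370 in resistant and 112770 and 112790 in parental libraries, 11 of them higher and MYOD1 not past the test. Markers of other cell types were low or mixed. The 3 of 6 blood cell markers that were measured summed to 44.9 to 47.6 in resistant and 34.8 to 45.7 in parental libraries, the 6 epithelial markers to 371 to 469 and 467 to 498, the 2 of 5 endothelial markers (TEK and CLDN5) to 1960 to 1981 and 778 to 857, the 5 of 6 neuronal and glial markers to 1482 to 1560 and 1023 to 1065, and PMEL, the 1 of 4 melanocyte markers measured, had 307 to 340 and 269 to 286. Their part in the results was not tested.

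The promoters of late cell cycle genes often carry the letters TTTGAA close to the start of transcription, the element through which the MuvB complex represses and later activates them, together with CCAAT boxes, which bind the factor NF-Y. Promoter windows from RefSeq on GRCh38.p14, which span 250 bases before and 50 after a start, matched 6 of the 10 genes with 9 windows in all, the others being AURKA, BIRC5, TPX2 and UBE2C. They are shown because such elements are common to genes of G2 and mitosis, and the windows show which of the matched genes carry them and where. Only the 250 bases before the start were searched, on both strands, so that a CCAAT box on the other strand reads as ATTGG. PLK1, INCENP and CDCA8 have TTTGAA with its first base 29, 10 and 23 bases before the start. BORA has it 177 bases before the start, and the windows of AURKB (2 starts) and PLK4 (3 starts) hold no such letters there. These distances run from RefSeq starts, and the gene starts in the GENCODE 29 annotation differ. That of BORA (72727749) falls within its element. Those of PLK1 (23677656), INCENP (62123973) and CDCA8 (37692418) come before theirs. Which of these genes carry TTTGAA next to a start therefore depends on the start used. TTTGAA stands in 13.3% of all 35116 promoter windows and CCAAT in 32.0%, against 49.1% and 63.6% of 55 windows of other G2/M phase genes. For the 9 windows of the genes described here, the shares were 44.4% and 77.8%. In the 50 bases next to the start, TTTGAA stands in 33.3% of the 9 windows of the genes described here (3 of 9). The share is 23.6% in the windows of other G2/M phase genes (13 of 55) and 2.28% in all windows. CCAAT stands there in 22.2%, 23.6% and 6.89% of these 3 sets. The 9 windows come from 6 genes, with 3 from PLK4 and 2 from AURKB. The windows below are written 5′ to 3′ on the strand of the gene, and capitals mark the TTTGAA element and the CCAAT box in either direction. In CDCA8 the last letter of the element is also the first letter of a reversed CCAAT box.
PLK1, chr16:23678769-23678888, plus strand: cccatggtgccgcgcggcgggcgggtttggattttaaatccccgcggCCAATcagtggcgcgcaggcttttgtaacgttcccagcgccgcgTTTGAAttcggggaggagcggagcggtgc
INCENP, chr11:62123891-62124010, plus strand: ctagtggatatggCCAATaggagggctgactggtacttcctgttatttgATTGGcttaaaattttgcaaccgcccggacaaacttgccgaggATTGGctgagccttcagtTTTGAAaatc
CDCA8, chr1:37692396-37692515, plus strand: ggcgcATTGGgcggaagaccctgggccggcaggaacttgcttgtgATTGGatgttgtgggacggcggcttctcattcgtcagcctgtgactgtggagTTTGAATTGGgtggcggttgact
AURKB, chr17:8210266-8210385, minus strand: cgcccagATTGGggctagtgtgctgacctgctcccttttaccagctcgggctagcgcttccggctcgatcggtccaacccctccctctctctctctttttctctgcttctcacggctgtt
BORA, chr13:72727723-72727872, plus strand: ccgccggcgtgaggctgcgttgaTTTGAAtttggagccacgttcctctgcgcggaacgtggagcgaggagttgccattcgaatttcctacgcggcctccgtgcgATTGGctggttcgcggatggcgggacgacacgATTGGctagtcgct
In resistant cells the 3 genes with TTTGAA next to the RefSeq start, PLK1, INCENP and CDCA8, were higher. AURKB and PLK4, which had none in the 250 bases searched, were higher as well. The 50 bases after each start were not searched. BORA was lower. The other genes that fell, BIRC5, UBE2C and AURKA, had no matched window, and neither had TPX2. These windows therefore cannot relate the element to the direction of change. Of all genes tested, 32.7% were higher and 34.2% lower. A match of letters is a description of the window and does not show that a factor binds there.

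The network split in the resistant cells. AURKB, INCENP, PLK1, PLK4 and CDCA8 rose, BIRC5, BORA, UBE2C and AURKA fell, and TPX2 did not pass the test. BIRC5 moved most, to about 0.508 times its parental level, and none of the others reached a 1.5-fold change. The test was limma on log2(normalized count + 1), with Benjamini-Hochberg adjustment over all 18330 genes tested and a threshold of 0.05. So many genes differed between these libraries that a call alone says little: 66.9% of all genes passed, 32.7% as higher and 34.2% as lower, beside 9 of the 10 genes here. For all 10 the resistant libraries lay wholly above (5) or wholly below (5) the parental ones, which was true of 82.1% of all genes (41.0% above and 41.1% below). The median size of the log2 fold change was 0.37 over the 10 genes, against 0.36 over all genes tested, and the median signed value was 0.03, against 0.0043 over all genes tested.

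**Figure D1:**
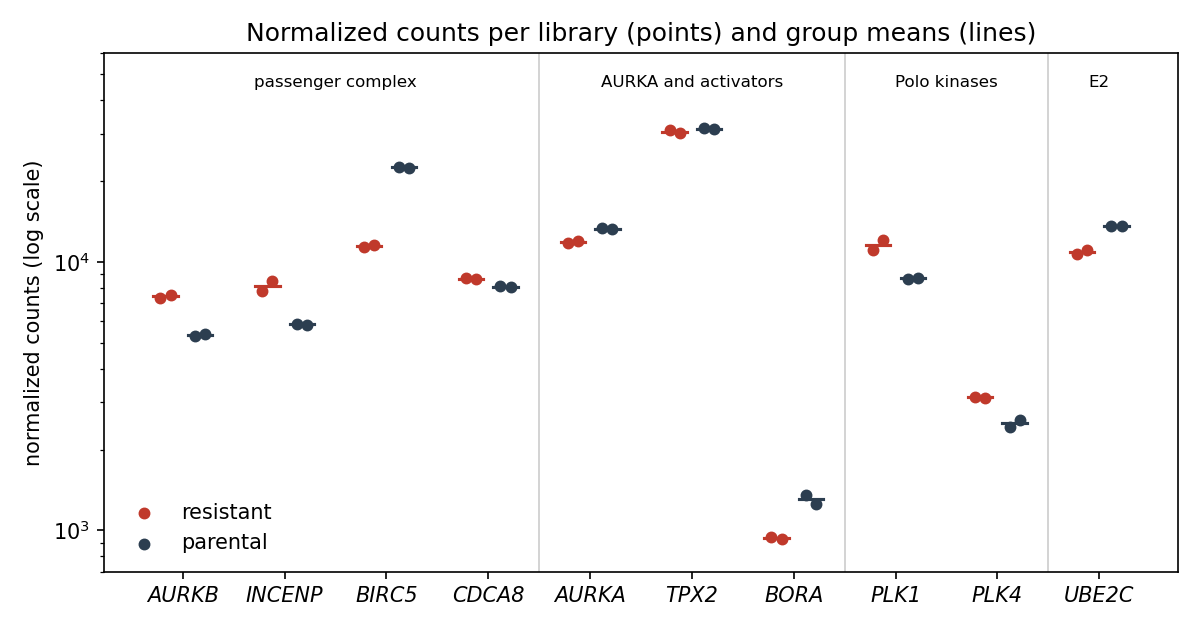
Normalized counts on a log axis of the 10 genes in each library, ordered by role, with resistant libraries left of parental ones; points are libraries and lines are group means. BIRC5 shows the widest gap, with 11348 and 11542 in resistant and 22636 and 22427 in parental libraries, while the groups of TPX2 lie next to each other.

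Within the chromosomal passenger complex, the RNAs of the kinase and the scaffold rose by about the same factor, that of borealin rose little and that of survivin fell. AURKB, the kinase subunit, had 7332 and 7546 normalized counts in the resistant libraries, against 5304 and 5387 in the parental libraries. Both resistant libraries lay above both parental ones, and the log2 fold change was 0.48 (SE 0.03, limma adjusted p = 1.86e-12). INCENP, the scaffold that binds the kinase at one end and the targeting subunits at the other, had 7769 and 8495 normalized counts in resistant and 5889 and 5840 in parental libraries. Its groups did not overlap either, the second resistant library was the highest, and the log2 fold change was 0.47 (SE 0.04, limma adjusted p = 1.74e-11). CDCA8, whose product borealin joins survivin and INCENP in a bundle of helices, had 8675 and 8643 in resistant against 8114 and 8041 in parental libraries. That is a rise of 7.2%, with a log2 fold change of 0.10 (SE 0.03, limma adjusted p = 0.00747). The call on CDCA8 was lost without either parental library, at a limma adjusted p of 0.0893 without parental replicate 1 and 0.141 without parental replicate 2.

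BIRC5 encodes survivin, which reads the phosphorylated histone mark that places the complex at centromeres and which also belongs by its domain to the inhibitor of apoptosis proteins. It averaged 11445 ± 137 normalized counts in the resistant libraries (11348 and 11542), against 22531 ± 148 in the parental libraries (22636 and 22427; SD, n = 2 each). The resistant libraries lay far below the parental ones, with a log2 fold change of -0.98 (SE 0.03, limma adjusted p = 9.29e-21), and 83.8% of all genes had a smaller change in size. In the GRCh38 annotation of GENCODE 29 the 4 genes lie on chromosome 17 from 8204733 to 8210600 (AURKB, ENSG00000178999), chromosome 11 from 62123973 to 62153163 (INCENP, ENSG00000149503), chromosome 1 from 37692418 to 37709719 (CDCA8, ENSG00000134690) and chromosome 17 from 78214186 to 78225636 (BIRC5, ENSG00000089685), so that AURKB and BIRC5 stand on different arms of chromosome 17. In bulk RNA, a different share of cells in G2 and mitosis and a different amount of RNA per cell cannot be told apart.

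AURKA and its activators were level or lower. AURKA, the kinase of centrosomes and spindle poles, had 11743 and 11980 normalized counts in resistant libraries, against 13327 and 13256 in parental libraries. The groups were apart, but the drop was 10.8% of the parental mean, a log2 fold change of -0.16 (SE 0.03, limma adjusted p = 2.83e-05). TPX2 had 30991 and 30091 in resistant and 31636 and 31142 in parental libraries, a log2 fold change of -0.04 (SE 0.03, limma adjusted p = 0.215) that did not pass. Without resistant replicate 1 it did, at -0.06 (limma adjusted p = 0.00335), with a single resistant library assumed to vary like the other group. BORA, the cofactor through which AURKA reaches PLK1, was the least abundant of the 10, with 947 and 929 in resistant and 1357 and 1254 in parental libraries. It fell by 0.48 on the log2 scale (SE 0.06, limma adjusted p = 6.31e-08), and its parental libraries were the most spread of the 10 genes relative to their mean. DIS3, a ribonuclease gene on the opposite strand, shares 37.0% of the exonic bases of BORA. Without a stated strand setting, the counting may have mixed reads of the shared bases between both genes or left them out. Neither which of these happened nor which gene the reads came from can be told. DIS3 had 2899 and 2822 normalized counts in resistant against 4567 and 4605 in parental libraries, a log2 fold change of -0.68 (SE 0.04, limma adjusted p = 1.27e-14). AURKA lies on chromosome 20 from 56369389 to 56392337 (ENSG00000087586), TPX2 on chromosome 20 from 31739271 to 31801805 (ENSG00000088325) and BORA on chromosome 13 from 72727749 to 72756198 (ENSG00000136122).

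PLK1 and PLK4 both rose. PLK1, which acts at centrosomes, kinetochores and the midbody, had 11110 and 12018 normalized counts in resistant libraries and 8666 and 8685 in parental libraries. The resistant libraries were apart from the parental ones and also differed from each other more than the parental pair did, and the log2 fold change was 0.41 (SE 0.03, limma adjusted p = 4.47e-11). PLK4, the kinase that limits how many centrioles form, had 3136 and 3122 in resistant and 2430 and 2579 in parental libraries, a log2 fold change of 0.32 (SE 0.04, limma adjusted p = 2.29e-07). PLK1 lies on chromosome 16 from 23677656 to 23690367 (ENSG00000166851), where an antisense transcript covers 11.6% of its exonic bases, and PLK4 on chromosome 4 from 127880861 to 127899195 (ENSG00000142731). Of the other Polo genes measured, PLK3, which responds to stress, fell, with 734 and 745 against 1172 and 1174 normalized counts and a log2 fold change of -0.67 (SE 0.06, limma adjusted p = 2.02e-10). PLK2, a gene of centriole duplication and stress, had 19572 and 19605 against 18895 and 18640 and did not pass (limma adjusted p = 0.058), although it did without either resistant library (limma adjusted p = 0.00741 and 0.0101).

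UBE2C, the conjugating enzyme that starts ubiquitin chains for the anaphase promoting complex, had 10714 and 11065 normalized counts in resistant libraries, against 13551 and 13599 in parental libraries. All resistant values lay below all parental ones, with a log2 fold change of -0.32 (SE 0.03, limma adjusted p = 6.70e-10). UBE2S, the enzyme that lengthens those chains, fell as well, with 21671 and 22525 against 26827 and 25968 and a log2 fold change of -0.26 (SE 0.03, limma adjusted p = 1.69e-08). That call was lost against 1.2-fold (limma adjusted p = 0.947) and with the dispersion of edgeR fixed at 0.01 (adjusted p = 0.143). UBE2C lies on chromosome 20 from 45812576 to 45816957 (ENSG00000175063). In the authors' deposited table the same comparison has adjusted p-values below 0.05 for 9 of the 10 genes, 5 higher and 4 lower (56.6% of all its genes, 27.0% higher and 29.6% lower), with log2 fold changes from -0.98 for BIRC5 to 0.48 for AURKB and an adjusted p of 0.277 for TPX2.

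**Figure D2:**
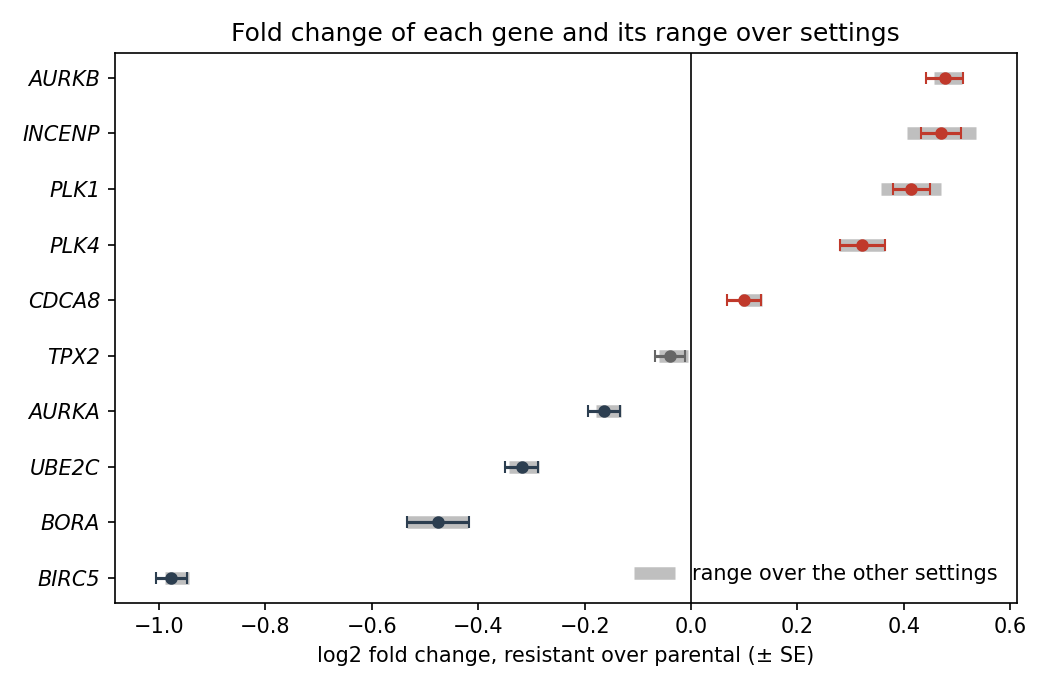
Log2 fold change of each gene, resistant over parental, with its SE; grey bars give the range over the other settings tried, apart from those that subtract chromosomal neighbours. The order runs from AURKB at 0.48 to BIRC5 at -0.98, and the bar of TPX2 stays between -0.06 and -0.01.

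Under stricter demands 5 of the 10 genes kept a call. When limma was asked for a change above 1.2-fold, AURKB, INCENP and PLK1 passed as higher and BIRC5 and BORA as lower, beside 37.1% of all genes (18.4% higher and 18.6% lower). With the dispersion of edgeR fixed at 0.01, an assumed spread between separate cultures, the same 5 passed, beside 43.3% of all genes (22.1% higher and 21.2% lower). AURKA, CDCA8, PLK4 and UBE2C lost their calls in both settings.

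Ratios within a library take out its depth and show the balance between partners. Survivin RNA exceeded INCENP RNA 1.46 and 1.36 times in the resistant libraries, against 3.84 and 3.84 times in the parental libraries. The resistant ratios were below the parental ones, with a log2 difference of -1.45. The ratio of AURKB to INCENP was 0.944 and 0.888 in resistant and 0.901 and 0.923 in parental libraries, and the groups overlapped. CDCA8 over INCENP stood at 1.12 and 1.02 in resistant against 1.38 and 1.38 in parental libraries. Among partners of AURKA, TPX2 over AURKA was 2.64 and 2.51 in resistant against 2.37 and 2.35 in parental libraries. BORA over AURKA was 0.0807 and 0.0776 in resistant against 0.102 and 0.0946 in parental libraries, and BORA over PLK1 was 0.0853 and 0.0774 against 0.157 and 0.144. By these counts BORA was thus lower relative to the kinase that activates PLK1 and to PLK1 itself. DIS3 shares 37.0% of the exonic bases of BORA, so both ratios are uncertain. UBE2C over PLK1 was 0.964 and 0.921 in resistant against 1.56 and 1.57 in parental libraries, and PLK4 over PLK1 overlapped between groups, at 0.282 and 0.260 against 0.280 and 0.297. These ratios are of read numbers, not of molecules, since the genes differ in length. With 2 libraries against 2, the exact two-sided permutation test cannot go below p = 0.333, which the 6 ratios whose groups did not overlap reached.

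**Figure D3:**
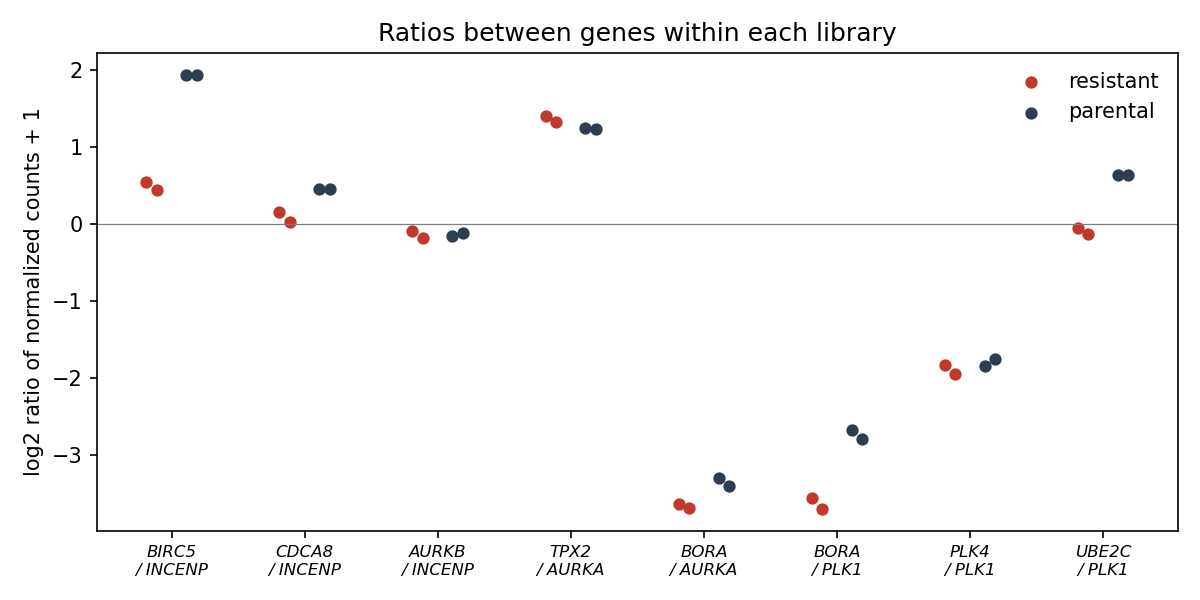
Log2 ratio of normalized counts (with 1 added) between pairs of genes in each library, resistant left of parental; points are libraries. BIRC5 over INCENP lies at 0.44 to 0.55 in resistant and at 1.94 in parental libraries, and AURKB over INCENP overlaps.

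Levels between genes were compared as normalized counts per kilobase of exonic sequence in the annotation. In resistant cells TPX2 (8472 ± 177) and UBE2C (8467 ± 193, SD, n = 2) led and did not differ beyond their spread. AURKA (4051 ± 57.3), CDCA8 (3507 ± 9.16), AURKB (3320 ± 67.6), BIRC5 (3000 ± 35.98), PLK1 (2429 ± 135) and INCENP (1818 ± 115) followed, and PLK4 (698 ± 2.16) and BORA (294 ± 4.01) closed the order. In parental cells UBE2C (10556 ± 26.4) stood above TPX2 (8707 ± 97.0), and BIRC5 (5906 ± 38.8) had rank 3, before AURKA (4539 ± 17.1), CDCA8 (3272 ± 21.1), AURKB (2385 ± 26.3), PLK1 (1823 ± 2.86), INCENP (1311 ± 7.79), PLK4 (559 ± 23.5) and BORA (409 ± 23.0). Every step of these exonic orders was wider than the summed SDs of its 2 genes, apart from that between TPX2 and UBE2C in resistant cells, but the order depends on the length used. Per kilobase of the longest transcript, UBE2C led in both groups (11914 in resistant and 14852 in parental cells), and BIRC5 had rank 5 in resistant and rank 3 in parental cells. By that length AURKB (5932) stood above AURKA (5276), and BIRC5 (4222) above CDCA8 (3507), in resistant cells. AURKB (4263) also stood above CDCA8 (3272) in parental cells, and each of these steps was again wider than the summed SDs. PLK1, INCENP, PLK4 and BORA held the lowest 4 ranks in both groups by either length.

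Around some of these genes, though not all, most neighbouring genes shifted the same way. Each gene was therefore set beside the median of the 20 tested genes around it, 10 on either side. The neighbours of BIRC5 on chromosome 17 had a median log2 fold change of -1.21, and 19 of 20 were below 0. The neighbours of TPX2 had a median of -0.40 (16 of 20 below 0), those of UBE2C -0.35 (14 of 20 below 0) and those of AURKA -0.04 (11 of 20 below 0), all on chromosome 20. Around the genes that rose, the medians were 0.31 for AURKB, 0.10 for PLK1, -0.12 for INCENP, -0.15 for CDCA8 and -0.26 for PLK4, and around BORA -0.24. PLK4, INCENP and CDCA8 thus rose among neighbours whose median was below 0, and BIRC5 fell within a stretch that fell. Once the neighbour median was subtracted, 7 of the 10 genes passed as higher and 2 as lower, beside 64.7% of all genes (31.5% higher and 33.2% lower), with p-values that take the median as known.

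BIRC5 depended on how wide a stretch was taken. Relative to its neighbours its log2 value was -0.09 with 5 genes on either side, 0.23 with 10 and 0.44 with 25 (limma adjusted p = 0.00847, 8.66e-08 and 5.47e-13), so no direction relative to its surroundings is shown. AURKA turned in the same way, with -0.61, -0.12 and 0.06, the last not past the test (limma adjusted p = 0.0811). UBE2C had 0.32, 0.03 and 0.02, of which the value at 5 genes passed. TPX2 was above its neighbours at every width, at 0.46, 0.37 and 0.31, and so were PLK4 (0.56, 0.58 and 0.58), INCENP (0.82, 0.59 and 0.47), PLK1 (0.33, 0.31 and 0.33), CDCA8 (0.26, 0.25 and 0.25) and AURKB (0.16, 0.16 and 0.37). BORA was below the median of its neighbours, at -0.24, -0.24 and -0.17. Its 20 neighbours reached from 52642425 to 76886390 on chromosome 13, with 14 below 0 and 6 above. The gene directly on either side fell more than BORA (-0.48): MZT1 by -0.71 and DIS3, which overlaps it, by -0.68. A fall of BORA beyond its closest neighbours is therefore not shown. The widths of 5 and 25 were chosen after seeing the data, and whether a change of chromosome copies underlies these stretches was not tested.

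**Figure D4:**
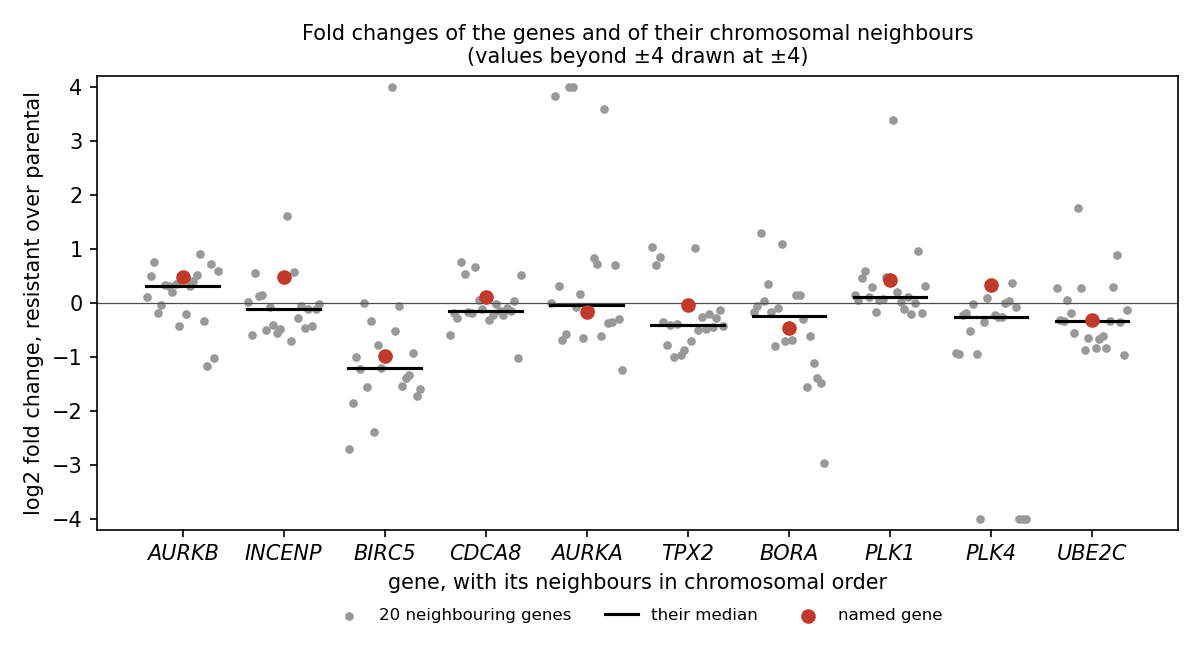
Log2 fold change, resistant over parental, of the 10 genes (red) and of the 20 tested genes around each in chromosomal order (grey), with the neighbours' median as a line; values beyond 4 in size are drawn at the edge. BIRC5 sits at -0.98 beside a neighbour median of -1.21, and PLK4 at 0.32 above a median of -0.26.

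The partners of the network were counted in 9 lists, which hold 235 distinct tested genes, 21 of them in more than 1 list. Together 160 rose, 45 fell and 30 did not pass, against 32.7% higher and 34.2% lower of all genes. When a change above 1.2-fold was asked for, 84 of the 235 were higher and 25 lower, beside 18.4% and 18.6% of all genes. Among the 46 list genes named in the text, 12 lost their call there: BIRC2, BUB1, CCNE2, CDC20, CEP120, DIABLO, FZR1, HASPIN, MYBL2, STIL, UBE2S and XIAP. With the dispersion of edgeR fixed at 0.01, 10 of these lost it, and DIABLO and STIL did not. Of 29 genes that recruit the passenger complex, oppose it or work with it at the central spindle, 22 rose, 4 fell and 3 did not pass, with a median log2 fold change of 0.30. HASPIN, the kinase that writes the histone mark survivin reads, had 1089 and 1044 normalized counts in resistant against 837 and 845 in parental libraries (0.34, SE 0.06). BUB1, which writes a further mark at centromeres, had 10478 and 10264 against 9736 and 9781 (0.09, SE 0.03), a call lost without either parental library (limma adjusted p = 0.18 and 0.145). KIF20A, the kinesin that carries the complex to the central spindle, rose by 0.80 on the log2 scale (SE 0.03), and MKI67, which coats mitotic chromosomes, by 1.34 (SE 0.03). The 2 that fell most were the septin gene SEPTIN9 (-1.85, SE 0.03), whose neighbours had a median of -1.37, and the phosphatase scaffold gene PPP2R1A (-0.35, SE 0.03).

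Among 23 activators, partners and brakes of Aurora kinases, 13 were higher, 9 lower and 1 not past the test, around a median of 0.09. All genes tested gave 32.7% higher and 34.2% lower. The spindle genes KIF11 (1.12, SE 0.03) and HMMR (1.05, SE 0.04) and the centrosomal scaffold gene CEP192 (0.57, SE 0.04), which recruits both AURKA and PLK4, rose. KPNA2, an importin alpha that keeps TPX2 inactive until Ran releases it, had 35433 and 34365 normalized counts in resistant against 61112 and 61530 in parental libraries, a log2 fold change of -0.81 (SE 0.03). Its neighbours on the chromosome had a median of -1.39. ARHGEF2, a microtubule-bound exchange factor, fell by 0.66 on the log2 scale (SE 0.03). FZR1, which directs the anaphase promoting complex to AURKA, was at 5084 and 5578 in resistant against 6670 and 6666 in parental libraries (-0.32, SE 0.04).

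Of 28 measured genes of the Polo family, its regulators and its targets, 19 rose, 5 fell and 4 did not pass (median 0.21). Among all genes tested, 32.7% were higher and 34.2% lower. CDK1, the kinase that primes many PLK1 substrates, rose by 1.199 on the log2 scale (SE 0.04) and CDK2 by 0.80 (SE 0.04). Beside PLK3, the autophagy receptor gene OPTN fell (-1.45, SE 0.05). Chromosomal neighbours had medians of 0.54 for CDK1, 0.31 for CDK2, 0.02 for PLK3 and -0.86 for OPTN. The centriole network around PLK4 had 12 of 21 genes higher, 3 lower and 6 not past the test, with a median log2 fold change of 0.17. STIL, which binds and activates PLK4, rose by 0.33 on the log2 scale (SE 0.04), as did the F-box gene FBXW8 (0.70, SE 0.06) and the centrin gene CETN3 (0.66, SE 0.07). SASS6, the cartwheel protein of new centrioles, had 2350 and 2120 in resistant against 2028 and 2162 in parental libraries and did not pass (limma adjusted p = 0.114), although it did without resistant replicate 2 (limma adjusted p = 0.000487). CENPJ (-0.44, SE 0.06) and CEP120 (-0.24, SE 0.05), which set centriole length, fell. The neighbours of CENPJ had a median of -0.78 and those of CEP120 -0.10.

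Over all genes tested, 32.7% were higher and 34.2% lower. For the anaphase promoting complex, its ubiquitin enzymes and its inhibitors, 13 of 30 were higher, 9 lower and 8 not past the test, and the median was 0.06. CDC20, its activator in mitosis, had 16620 and 17016 in resistant against 15637 and 15806 in parental libraries (0.10, SE 0.03), a call lost without either parental library (limma adjusted p = 0.137 and 0.0769). The checkpoint gene BUB3 (1.16, SE 0.03) and the subunit gene ANAPC16 (0.86, SE 0.04) rose most, and the subunit gene CDC16 (-0.74, SE 0.04) and MAD2L2 (-0.43, SE 0.04), an inhibitor that acts on FZR1, fell most. Neighbour medians were 0.54 for BUB3, 0.45 for ANAPC16, -0.85 for CDC16 and -0.21 for MAD2L2. Of 27 transcription factors of late cell cycle genes and their cofactors, 17 rose and 7 fell, with a median of 0.23. FOXM1, an activator of G2 and mitosis genes, had 13248 and 13621 normalized counts in resistant against 9751 and 9800 in parental libraries (0.46, SE 0.03), and its neighbours had a median of 0.56. MYBL2, which works with MuvB at such promoters, had 18379 and 18795 against 15199 and 15041 (0.30, SE 0.03). E2F2 (1.42, SE 0.05) and E2F7 (0.70, SE 0.06) rose most, and MYBL1 (-1.39, SE 0.08) and TFDP1 (-0.96, SE 0.03), the usual partner of E2F proteins, fell most. Their neighbours had medians of -0.27 for E2F2, 0.60 for E2F7, -0.40 for MYBL1 and -0.91 for TFDP1.

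The wider cell cycle lists give the setting. Of 48 other G2/M phase genes, 43 rose and 2 fell (median 0.37), with TOP2A (1.60, SE 0.03) at the top and JPT1 (-0.97, SE 0.03) and CKAP2L (-0.74, SE 0.04) as the genes that fell. Their chromosomal neighbours had medians of 0.87 for TOP2A, -1.23 for JPT1 and -0.30 for CKAP2L. Of 42 measured S phase genes, 37 were higher, 4 lower and 1 not past the test, around a median of 0.34. HELLS (1.58, SE 0.04) and PRIM1 (1.28, SE 0.05) rose most, and E2F8 (-0.45, SE 0.05) and CCNE2 (-0.22, SE 0.07) fell most. Beside these, 5 of the 10 Aurora, Polo and passenger genes rose and 4 fell. Of all genes tested, 32.7% were higher and 34.2% lower. Among 8 measured genes of the inhibitor of apoptosis family and its antagonists, other than BIRC5, 2 rose, 4 fell and 2 did not pass (median -0.07). XIAP rose by 0.16 on the log2 scale (SE 0.04) and DIABLO by 0.35 (SE 0.06), while HTRA2 (-0.39, SE 0.04) and BIRC2 (-0.12, SE 0.04) fell. The calls on BIRC2 and CCNE2 were lost in DESeq2 (adjusted p = 0.0688 and 0.0545). A further annotated gene of the same symbol shares 29.6% of the exonic bases of DIABLO, and INTS8 on the opposite strand covers 37.05% of those of CCNE2, so both values are uncertain. Genes on the opposite strand also share 14.5% of the exonic bases of CDK2, 15.9% of FOXM1, 15.3% of HASPIN and, by 2 genes, 20.8% and 16.1% of HTRA2.

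**Figure D5:**
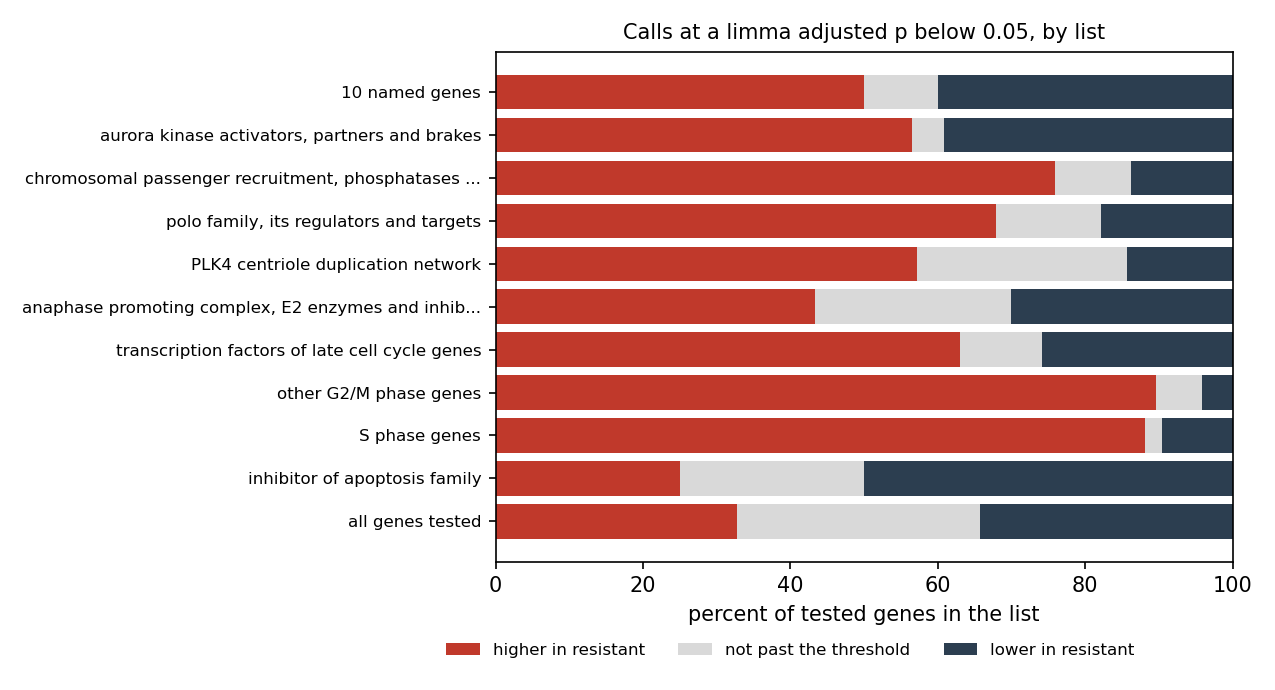
Percent of tested genes in each list that passed the limma test as higher (red) or lower (dark blue) in resistant cells, or did not pass (grey), with the 10 named genes at the top and all genes tested at the bottom. In the list of other G2/M phase genes 43 of 48 rose, beside 5 of the 10 named genes and 32.7% of all genes tested.

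The genes whose pattern over the 4 libraries was most like that of AURKB, by the root mean square difference of centred log2 values, were CBX6 (0.00222), TRMT5 (0.00253) and KAT6A (0.00524). For BIRC5 they were WRNIP1 (0.00550), EHD2 (0.00647) and MPP3 (0.00675). With 4 libraries and 2 levels, many genes follow a like pattern, and the measure mainly picks genes of the same fold change, such as -0.98 for both WRNIP1 and EHD2.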

How the data were processed

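Poly(A)-selected RNA of 2 vincristine-resistant and 2 parental RD libraries was analysed, grouped by sample title. The submitters' processing notes name GRCh38, STAR 2.5.2b, bcl2fastq 2.17, DESeq2 and featureCounts from Subread 1.5.2. Annotation and strandedness: not given in the sources used here. Each deposited library column is a signal, gene counts that the authors divided by a size factor (0.924 and 1.05 in resistant, 1.03 and 1.01 in parental libraries), as the values themselves show: 100% were whole multiples of a library's step (tolerance 0.01), which gave back the reads. The log2 fold changes and p-values in the table are the authors' own, per the file headers. The smallest gene mean is 9.98.

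Genes reaching 10 in 2 or more libraries were tested with limma 3.58.1 in R 4.3.3, with an intensity trend, on log2(value + 1), which slightly understates the change of low genes. SE is that of the moderated fit. Count tests with edgeR 4.0.16 and DESeq2 1.42.0 on recovered reads were alternatives, calling 12381 and 10403 genes where limma called 12271. Other alternatives were pseudocounts, filters, scalings, a 1.2-fold demand, a dispersion fixed at 0.01, leaving out each library, a replicate block and subtraction of the median of chromosomal neighbours, placed with GENCODE 29 (96.9% of identifiers). The edgeR coefficient of variation between replicates was 2.37%. The scripts were tested on simulated data. The 10 genes, the lists and the tests were chosen with earlier results of these data known. Named list genes are the 2 called genes with the largest and the 2 with the smallest fold change in each list among those whose higher group averaged 100 or more, plus 13 regulators taken by name. Protein sequences were not used here.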

Additional observations from a re-analysis of the deposited data

How the results depend on the processing

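The 9 calls among the 10 genes kept their direction under 2 other pseudocounts, 2 other filters, 2 other scalings, edgeR, DESeq2 and the replicate block. Against 1.2-fold, 3380 genes were higher and 3414 lower, and with the dispersion fixed at 0.01 in edgeR 4049 were higher and 3891 lower. In either setting 3 of the 10 genes were higher and 2 lower. AURKA (-0.16, adjusted p = 1.00 in limma's treat test and 0.378 in edgeR), CDCA8 (0.10, 1.00 and 0.614), PLK4 (0.32, 0.206 and 0.0635) and UBE2C (-0.32, 0.105 and 0.0628) lost their calls there. Of the genes of the 9 lists together, 84 were higher and 25 lower against 1.2-fold, beside 18.4% and 18.6% of all genes. With the fixed dispersion 88 were higher and 24 lower, beside 22.1% and 21.2% of all genes. With a library left out, CDCA8 ranged from 0.094 to 0.11 and TPX2 from -0.061 to -0.018, and the log2 ratio of AURKB over INCENP, resistant minus parental, from -0.037 to 0.050 around 0.0064. With chromosomal neighbours subtracted, 7 of the 10 genes were higher at each width. The number lower was 3 with 5 genes on either side, 2 with 10 and 1 with 25. Of all 17759 genes placed, 5636, 5600 and 5542 were higher at these widths and 5950, 5888 and 5842 lower. BIRC5 turned to 0.23 with 10 and 0.44 with 25, TPX2 to 0.37, 0.46 with 5 and 0.31 with 25, UBE2C to 0.027, 0.32 with 5 and 0.018 with 25, and AURKA to 0.061 with 25. Of the 46 named list genes, those that turned were CCNE2 (0.19), CDC16 (0.12), CENPJ (0.34), FZR1 (0.11), JPT1 (0.25), KPNA2 (0.58) and UBE2S (0.13), now higher than their neighbours, and DIABLO (-0.14), FOXM1 (-0.11) and PLK2 (-0.23), now lower. Each was turned by that subtraction alone, and the cause was not tested. With 10 genes on either side, E2F7 (0.093, limma adjusted p = 0.213), HTRA2 (-0.036, 0.44) and TFDP1 (-0.052, 0.16) kept their direction but lost their calls. The replicate numbers gave no sign of pairing (correlation of deviations -0.03), and a replicate block left 5926 genes higher and 6218 lower, with 5 and 4 of the 10 genes. Scaling to the same total moved the median of all genes to 0.037 and gave 6447 higher and 5831 lower.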
